A study of Rattus norvegicus with 35 samples.

Results

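Collagen genes were examined on whole rat genome arrays of the olfactory epithelium. They were taken as every probe, control spots left out, whose gene name in the scanner files is Col, a number, the letter a and a number, whatever its case and with or without a trailing _predicted. The rule found 51 probes of 31 genes among 41012 probes. It was applied to names alone and used no measured value. The genes were set in 5 classes. Fibrillar collagens, which form the striated fibres of connective tissue, had 7 genes and 13 probes. Basement membrane collagens, which form or anchor the sheet under an epithelium and around vessels, had 7 genes and 10 probes. Cartilage collagens had 6 genes and 13 probes, and associated collagens, which bind to fibrils or form beaded filaments beside them, had 7 genes and 10 probes. The remaining 4 genes, with 5 probes, are transmembrane or short-chain collagens. Collagens that the arrays list only under an accession or another form of name fall outside the rule.

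Every collagen is a trimer of chains wound into a triple helix, and the helix needs a glycine at the first place of each triplet of residues, written Gly-X-Y. Fibrillar chains are made as procollagens, whose C-propeptide brings the chains together and is then cut off, while type IV chains keep their ends and join into a network. The olfactory epithelium rests on a basement membrane above a lamina propria with vessels, glands and nerve bundles, and it lines bone and cartilage of the nasal cavity, so RNA of a dissected piece may hold any of these.

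All rats were Brown Norway, with no treatment and no altered gene in the labels. Newborns were 19 pups aged 3 to 5 days, of unknown sex, from 4 litters that came with their mothers: L1 with 4 pups and L2, L3 and L4 with 5 pups each. Each pup gave RNA of 1 side on 1 array. The adult group was 4 males of 9 weeks and the old group 4 males of 22 months, each with the left and right epithelium on an array of its own, so that 27 rats gave 35 arrays. A rat was the replicate, and the 2 arrays of a rat were averaged. Sex is unknown in the pups, so that age and sex cannot be told apart in the comparisons with them.

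Array medians of intensity ran from 40.2 to 179, and 24484 to 28361 probes were above background on an array. The medians were 88.7 to 179 on adult arrays, 40.2 to 59.8 on old arrays and 46.0 to 96.5 on pup arrays. The 8 adult arrays were scanned apart from all others, on days and slides of their own and with an earlier software release (9.5.1.1 against 9.5.3.1), so adult age and scan cannot be told apart. L1 and the old rats shared a scan day. Omp, the olfactory marker protein of mature sensory neurons, was well above background on every array. Its level was 5.03 in pups, 7.43 in adults and 8.14 in old rats on the scale given below, with the step from adult to old not called. Of the 5 markers of mature olfactory sensory neurons matched, 5 were lower in newborn than in adult and in old rats, against 18.6% and 21.7% of all probes. In such whole pieces of tissue, fewer cells of a type and less RNA per cell cannot be told apart.

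A level below is the log2 of a background-subtracted intensity over the median of its array, so that 0 is the median probe. Probes differ in brightness for reasons of their own, and a level is set only against the same probe in other rats. A change is a difference of 2 mean levels from the limma fit over all probes, given with its standard error (SE), and it was called at a Benjamini-Hochberg adjusted p under 0.01. For a gene with several probes, the one with the highest mean level stands for it as probe 1, and the others are set beside it. The p-values and SE of this fit measure only the spread between these rats within a litter or age group. The spread between litters does not enter them, so comparisons with newborns do not allow for it. Over all probes, the median change was 0.10 from adult to newborn, -0.04 from old to newborn and -0.14 from old to adult.

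Collagen transcripts stood mostly highest in the pups and lowest in the old rats. From adult to newborn, 19 of the 31 genes were higher and 0 were lower, 9 were not called and 3 were at background. Among all probes 26.5% were higher and 18.6% lower in that comparison. At an unadjusted p under 0.05 the fit gave 21 genes higher and 0 lower, and the methods' t-test called 13 higher and 0 lower. Of all 40603 probes in that t-test, 8767 were higher and 6478 lower. From old to newborn, 25 genes were higher, 0 were lower, 3 were not called and 3 were at background, against 19.6% and 21.7% of all probes. At an unadjusted p under 0.05 Col7a1 was lower as well, and the methods' t-test called Col7a1 and Col23a1 lower. Of all 40664 probes in that t-test, 7363 were higher and 8395 lower. From old to adult, 17 genes were higher and 1, Col7a1, was lower, with 10 not called and 3 at background, against 10.8% and 19.8% of all probes. The methods' t-test called 10 higher and 3 lower there, against 2259 higher and 5223 lower of all 40196 probes.

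The larger changes were counted as well. At least 5-fold higher were 3 genes in newborn over adult (2.18% of all probes), 14 in newborn over old (2.82%) and 7 in adult over old rats (1% of all probes). The count of 7 was 5 without adult rat 14 or adult rat 16. The groups did not overlap, newborn above adult, for 15 genes, while 21.2% of probes above background in both groups did so. Newborn stood wholly above old for 22 genes, against 13% of probes, and adult wholly above old for 18, against 18.2%. Adult lay wholly below old for 5 genes, against 36.5% of probes. These 5 genes, Col7a1, Col9a2, Col9a3, Col18a1 and Col23a1, are of the basement membrane, cartilage and transmembrane classes. Col9a3 did so at probe 1 only, and at its second probe every adult lay above every old rat.

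**Figure D1:**
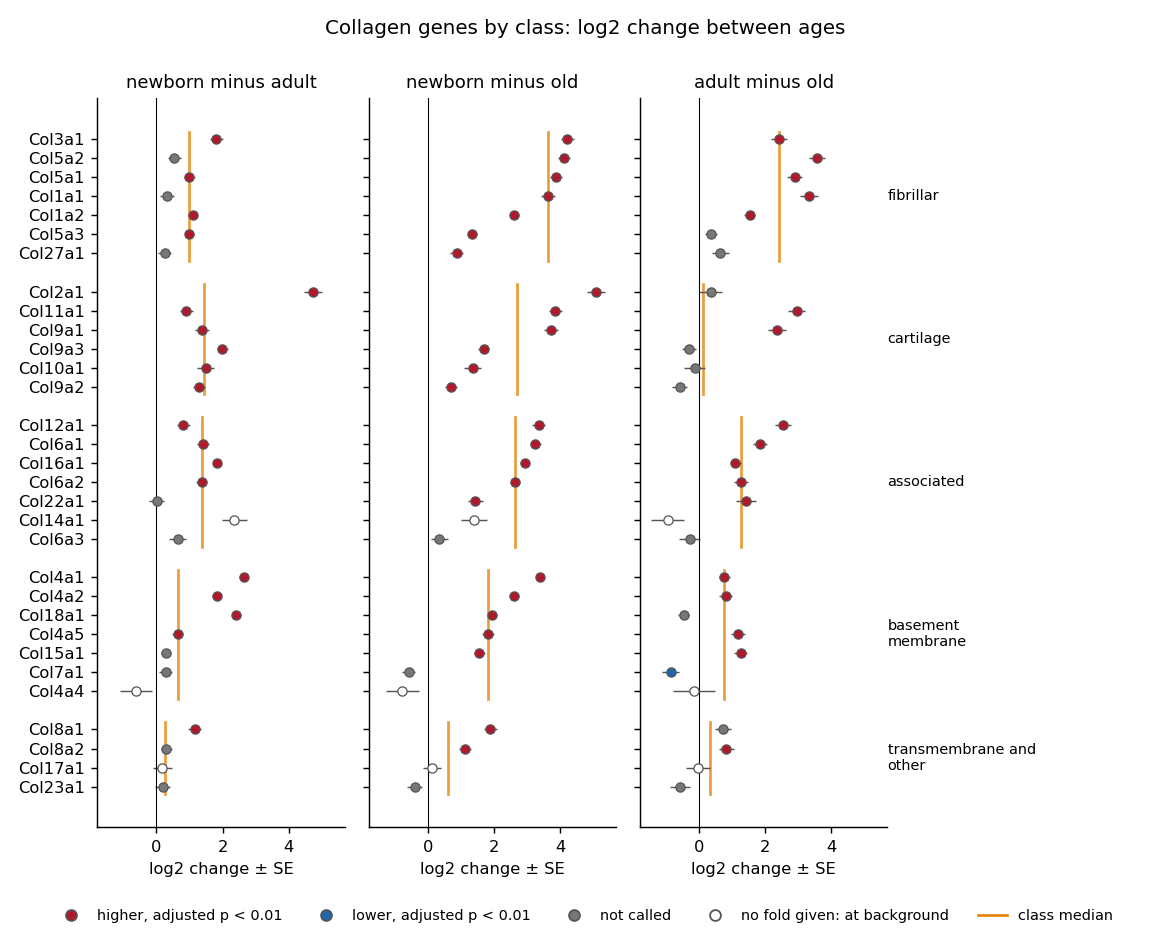
Log2 change of each collagen gene (point, with its SE as a bar) between newborn and adult, newborn and old, and adult and old rats, grouped by class; colours give the call, and orange lines the class medians over all genes of the class. Fibrillar genes lie far to the right in both comparisons with old rats, with medians of 3.64 and 2.41, while the cartilage median is 1.43 between newborn and adult and 0.11 between adult and old.

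The class medians are drawn in the plot of changes by class and are described here without a test between classes. Fibrillar genes had a median change of 0.99 from adult to newborn and of 2.41 from old to adult. Cartilage genes had 1.43 and 0.11, and basement membrane genes 0.64 and 0.76. Associated genes had 1.36 and 1.27, and the transmembrane and other genes 0.25 and 0.34. These medians hold Col4a4, Col14a1 and Col17a1, which were at background. Over measured genes alone the basement membrane medians were 1.23 and 0.78, so that the larger step changed, those of the associated genes 1.09 and 1.35, and those of the transmembrane and other genes 0.30 and 0.72. Over all 31 genes the medians were 0.99 from adult to newborn, 1.88 from old to newborn and 0.80 from old to adult. The fibrillar median from adult to newborn was 0.18 under quantile normalization, and that of the associated genes 0.68 under scaling by the 75th percentile.

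A difference between 2 classes within a rat is free of a single factor that scales its array. It is not free of scaling that depends on intensity, such as quantile normalization, and was taken only on levels over the array median. The mean level of the fibrillar genes less that of the basement membrane genes was 3.87 in newborns (3.32 to 4.49 over the pups), 4.36 in adults (4.18 to 4.56) and 2.71 in old rats (2.50 to 2.91). All 4 old rats lay below every pup and every adult. The fibrillar less the cartilage genes gave 2.77 in newborns (2.13 to 3.42), 3.88 in adults (3.74 to 4.05) and 2.55 in old rats (2.20 to 2.92), with every adult above every pup and every old rat. These are descriptions over the genes above background on all arrays, and no test was made on them.

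**Figure D2:**
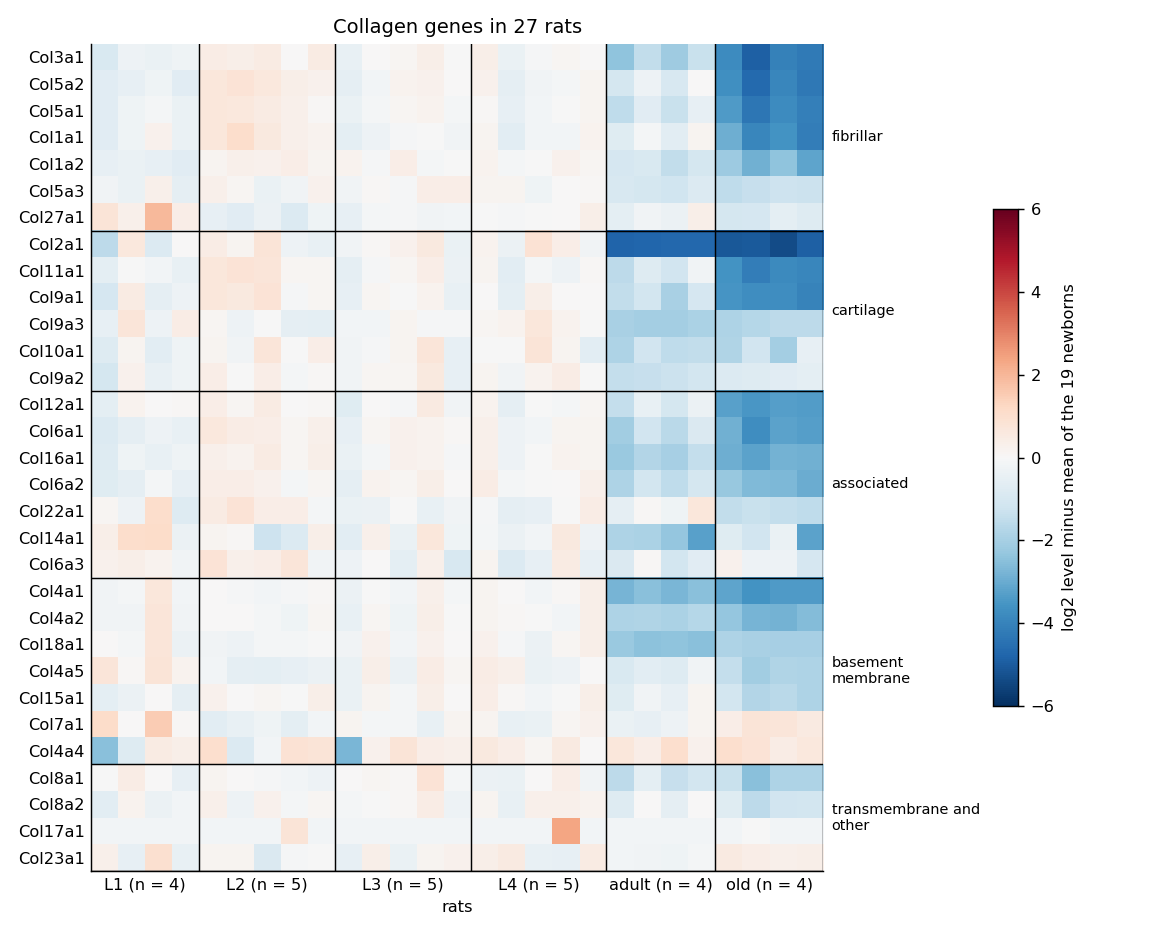
Level of each of the 31 collagen genes (rows of the picture, by class) in each of 27 rats (columns, by group), as log2 difference from the mean of the 19 newborns; blue is lower and red is higher than newborn. The 4 old rats are blue for most fibrillar and associated genes, and adults and old rats are both blue for Col2a1, Col4a1 and Col4a2.

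Among the fibrillar collagens, all 7 genes were higher in newborn than in old rats, 4 were higher in newborns than in adults, and 5 were higher in adult than in old rats. Type I collagen, the main fibre of bone, tendon and dermis, is a trimer of chains from Col1a1 and Col1a2. The level of Col1a1 ran from 10.20 over a median of 10.81 to 11.92 in the pups, was 10.12, 10.76, 10.23 and 11.03 in the adults, and 7.93, 6.94, 7.28 and 6.69 in the old rats. Pups and adults overlapped, and the old rats stood apart below both. Newborn and adult differed by 0.31 ± 0.21 (SE, adjusted p = 0.209). Col1a1 was 12.5-fold higher in newborn than in old rats (3.64 ± 0.21, adjusted p = 1.11e-12) and 10.0-fold higher in adult than in old rats (3.33 ± 0.26, adjusted p = 1.48e-09). The sign between newborn and adult depended on the scaling, since it was -0.50 (adjusted p = 0.0581) under quantile normalization and -0.72 (adjusted p = 0.00556) with normexp background as well.

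Col1a2 gave another picture at its brighter probe. Its level was 9.95 to 11.01 in the pups, with a median of 10.73, then 9.62, 9.72, 9.15 and 9.55 in the adults and 8.45, 7.76, 8.23 and 7.48 in the old rats. The 3 ages did not overlap. The change was 1.09 ± 0.13 from adult to newborn (adjusted p = 1.08e-07), 2.62 ± 0.13 from old to newborn and 1.53 ± 0.16 from old to adult. Under quantile normalization the first of these was 0.18 and under normexp 0.28, neither called.

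The 5 probes of type I collagen fell in 2 sets that crossed the genes. Col1a1 probe 3 and Col1a2 probe 2 behaved as Col1a1 probe 1 did. They stood at 9.78 and 9.50 in adults and 6.27 and 6.23 in old rats, with changes of 3.51 ± 0.28 and 3.27 ± 0.24. Between newborn and adult they differed by 0.26 (adjusted p = 0.326) and 0.31 (adjusted p = 0.165). Col1a1 probe 2 instead behaved as Col1a2 probe 1. It stood at 10.26 in pups, 9.22 in adults and 7.84 in old rats, a change of 1.04 ± 0.12 from adult to newborn and 1.38 ± 0.16 from old to adult. Adult over old was thus 9.64-fold to 11.4-fold at 3 probes and 2.61-fold to 2.89-fold at the other 2.

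The sequences of these probes show where they lie on the transcript, and positions are of build rn3 as the files give them. The first 3 are coding, in the C-propeptide, and are shown because the 2 sets differ in where they lie on the transcript. Capitals mark the stop codon in probe 1 and a run of 8 bases shared with other fibrillar collagens in probe 3.
Col1a1 probe 1, chr10:83652326-83652385: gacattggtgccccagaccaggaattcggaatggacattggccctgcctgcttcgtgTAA
Col1a1 probe 3, chr10:83652273-83652332: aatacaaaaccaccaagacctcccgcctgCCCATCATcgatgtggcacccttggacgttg
Col1a2 probe 2, chr4:29463744-29463803: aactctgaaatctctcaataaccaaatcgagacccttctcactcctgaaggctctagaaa
Col1a2 probe 1, up to its stop codon: ggccctgtctgtttcaaaTAA
All 4 are on the plus strand. Col1a1 probe 3 overlaps the start of probe 1, and Col1a1 probe 2 (chr10:83652547-83652606) begins 161 bases past the end of probe 1. Col1a2 probe 1 (chr4:29466649-29466708) holds the stop codon and 39 bases after it, and lies 2845 bases past probe 2. Both probes of the second set therefore reach past the stop codon, and the 3 of the first set end at it or before it. Whether this position accounts for the 2 sets was not tested.

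**Figure D3:**
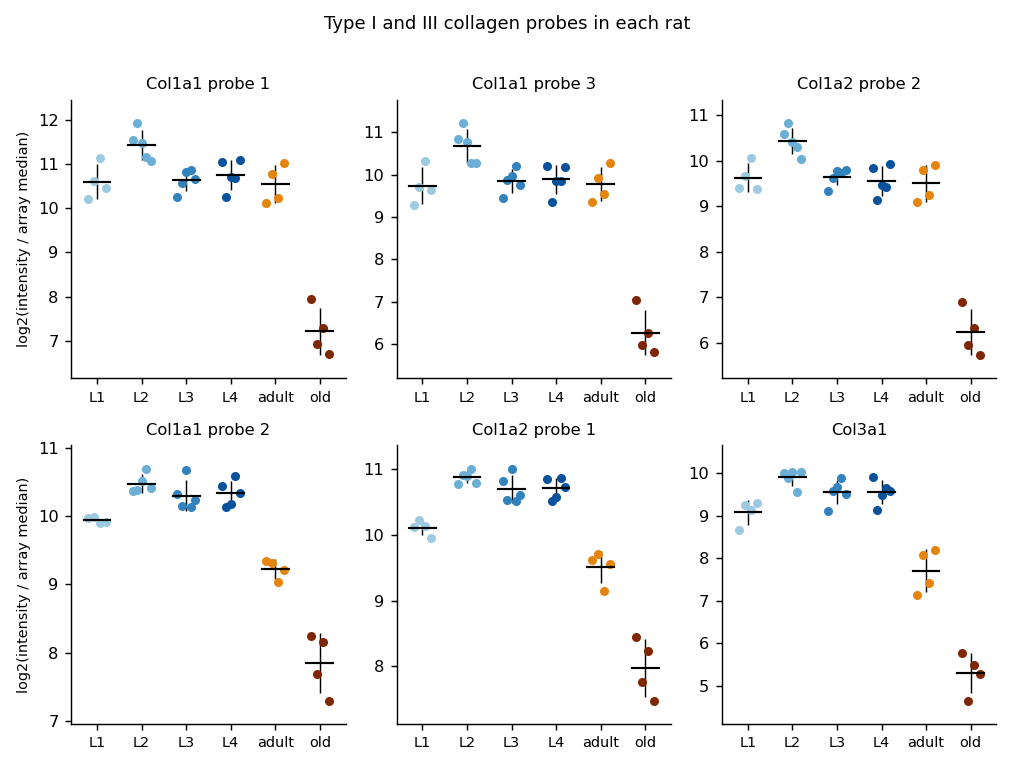
Level of the 5 type I collagen probes and of Col3a1 in each rat, as log2 of intensity over the array median; points are rats, black lines the group means and bars the SD over rats. In the upper row (Col1a1 probes 1 and 3, Col1a2 probe 2) adults overlap the pups and old rats lie far below, while in the lower row (Col1a1 probe 2, Col1a2 probe 1, Col3a1) adults sit between the pups and the old rats.

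The same division appeared within the newborns, where age plays no part. Over the 19 pups, as deviations from their litter mean, Col1a1 probe 1 went with Col1a1 probe 3 (r = 0.98, rho = 0.96) and with Col1a2 probe 2 (r = 0.96, rho = 0.95), each at the smallest p that the permutations can give, 1e-05, and an adjusted p of 3.33e-05. Col1a1 probe 2 went with Col1a2 probe 1 (r = 0.90, rho = 0.87, permutation p = 1e-05, adjusted p = 3.33e-05). Without the 2 pups farthest from the median these r were 0.98, 0.94 and 0.84. Col1a1 probe 1 and probe 2, of 1 gene, had r = 0.03 and rho = 0.05 (permutation p = 0.891). Over the 6 pairs that cross the sets, r ran from -0.05 to 0.25. These 10 pairs were chosen after the values were seen. The 2 sides of a rat gave the division once more. In adults the sides differed by a median of 0.77, 0.88 and 0.79 at the 3 coding probes and by 0.08 and 0.03 at the other 2. In old rats the median difference was 0.54 to 0.66 at all 5.

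Markers of bone and of fibroblasts were read beside these values. Of all probes, 26.5% were higher and 18.6% lower in newborn than in adult rats. The shares were 19.6% and 21.7% in newborn over old, and 10.8% and 19.8% in adult over old rats. Of 9 osteoblast markers, 0 were higher and 3 lower in newborn than in adult rats, 7 were higher and 1 lower in newborn than in old rats, and 6 were higher and 1 lower in adult than in old rats, with a median change of 2.83 there. The log2 of their summed intensities over the array median was 9.85 to 11.6 in newborns, 10.2 to 11.1 in adults and 8.30 to 9.20 in old rats. The brightest probes weigh most in such a sum. Sp7 and Phex, 2 of the 9, were not above background in any old rat. Sp7 was dim in the other ages too, above background on only 4 newborn and 3 adult arrays. Runx2, a transcription factor of the lineage, was the marker lower in pups and adults than in old rats. Ibsp, the bone sialoprotein, had levels of 7.96, 8.19 and 4.13 in the 3 ages. Of 8 fibroblast markers, 7 were higher and 0 lower in newborn than in adult rats, 6 and 1 in newborn than in old rats, and 2 and 2 in adult than in old rats. The log2 of their summed intensities was 6.25 to 7.39 in newborns, 5.53 to 6.31 in adults and 5.82 to 6.10 in old rats. Twist2 in adults and Thy1 in old rats were not above background. The part of either list in the fibrillar values was not tested.

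Col3a1, whose fibres run with type I in soft tissue and vessels, fell at each step. Its level was 8.65 to 10.03 in the pups (median 9.58), 7.13, 8.06, 7.43 and 8.20 in the adults, and 5.77, 4.65, 5.50 and 5.28 in the old rats. No rat of 1 age reached the values of another age. The change was 1.81 ± 0.19 from adult to newborn (adjusted p = 1.69e-08), 4.22 ± 0.19 from old to newborn, an 18.7-fold difference, and 2.41 ± 0.24 from old to adult. Newborn over adult and newborn over old were the largest changes of the class.

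Type V collagen, a minor chain set inside type I fibrils that governs their width, had 3 genes here. Col5a1 was 6.53 to 7.86 in the pups (median 7.15), 5.67, 6.52, 5.86 and 6.69 in adults, and 3.80, 2.87, 3.43 and 3.09 in old rats. Adults overlapped the lowest pups, and old rats overlapped neither. The changes were 0.99 ± 0.17, 3.88 ± 0.17 and 2.89 ± 0.22, in the order newborn over adult, newborn over old and adult over old. The first of these was not called with litter means as replicates (adjusted p = 0.0124), under quantile normalization (0.56, adjusted p = 0.0122), under normexp or by the methods' t-test. Col5a1 probe 2 gave 0.67, 4.03 and 3.36. Col5a2 was 7.35 to 8.87 in the pups (median 8.05), 6.99, 7.76, 7.10 and 8.06 in adults, and 4.34, 3.38, 4.14 and 3.74 in old rats. It was 17.4-fold higher in newborn than in old rats (4.12 ± 0.19) and 11.9-fold higher in adult than in old rats (3.58 ± 0.24), the largest change of the class between these ages. The change of 0.54 ± 0.19 from adult to newborn was not called (adjusted p = 0.0161), but was called without adult rat 16 (0.74, adjusted p = 0.00289) or without pup 26 of L3 (0.57, adjusted p = 0.00982). The 3 probes of Col5a2 start within 80 bases of each other and gave 3.58, 3.41 and 3.15 from old to adult. From adult to newborn probes 2 and 3 were called, at 0.65 (adjusted p = 0.00442) and 0.96, so that the call there depended on the probe.

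Col5a3 and Col27a1, a chain of developing cartilage and other tissues, moved less. Col5a3 stood at 3.33, 2.34 and 1.98 in newborn, adult and old rats and was called higher in newborn than in both others, by 0.99 and 1.35. Col27a1 stood at 2.72, 2.47 and 1.83 and was called only between newborn and old rats, by 0.88 ± 0.20 (adjusted p = 0.000583). Within a scan day, L1 over old, it was 1.68.

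A short run of the C-propeptide is shown in 3 fibrillar collagens. It was taken as the longest run of bases that these 3 probes share, so their matches were fixed by that choice. The run CCCATCAT, in capitals, is in 3 of the 51 collagen probes and in 42 of all 41012 probes (0.102%), read on the strand of the probe.
Col3a1, chr9:44318879-44318938, plus strand: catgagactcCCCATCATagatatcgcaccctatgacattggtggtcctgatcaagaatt
Col5a2 probe 3, chr9:44376974-44377033, minus strand: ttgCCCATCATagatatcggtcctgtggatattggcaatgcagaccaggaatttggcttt
The third is Col1a1 probe 3, given above. Col3a1 and Col5a2 lie near each other on chromosome 9, on opposite strands. The match is a description of the probes only.

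Cartilage collagens were higher in newborns than in adults for all 6 genes and higher in newborn than in old rats for all 6, while 2 of 6 were higher in adult than in old rats. Col2a1, the fibril chain of hyaline cartilage, changed most of all 31 collagen genes. Its level was 5.64 to 8.05 in the pups, with a median of 7.28. It was 2.40, 2.44, 2.50 and 2.48 in adults, and 2.10, 2.17, 1.85 and 2.30 in old rats. Every pup stood far above every older rat, and adults lay just above old rats with no overlap. Col2a1 was 26.5-fold higher in newborn than in adult rats (4.73 ± 0.27, adjusted p = 1.09e-12) and 33.8-fold above the old rats (5.08 ± 0.27, adjusted p = 5.21e-13). Adult and old rats differed by 0.35 ± 0.35 (adjusted p = 0.471). Its second probe was dim, above background on 7 of 19 newborn arrays, on none of the adult and on 1 of the 8 old arrays. It did not show the difference from old rats, with a change of 0.07 ± 0.29 from old to newborn (adjusted p = 0.875), and of all genes with several probes Col2a1 had the widest gap between them there, 5.01. Adult values lay below those of all old rats at that probe, but nearly all were at background, and no fold is given.

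Col11a1, which sits inside type II fibrils and is also made outside cartilage, was lowest in old rats. It was 5.30 to 6.73 in the pups (median 5.90), 4.35, 5.13, 4.78 and 5.71 in adults, and 2.31, 1.77, 2.08 and 2.0 in old rats. Adults reached into the range of the pups, and old rats lay below both. The change was 0.90 ± 0.19 from adult to newborn, 3.86 ± 0.19 from old to newborn and 2.95 ± 0.25 from old to adult, the largest of the class in that comparison. Newborn over adult was not called under quantile normalization (0.56), under normexp (0.35), with litter means or by the methods' t-test. Probe 4 of the gene gave 0.89, 3.72 and 2.83, probe 2 gave 2.61, 4.70 and 2.09, and probe 3 was not above background on any array.

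Type IX collagen, which coats type II fibrils, is made of chains from Col9a1, Col9a2 and Col9a3. Col9a1 was 1.65 to 3.48 in the pups (median 2.68), 1.18, 1.54, 0.71 and 1.64 in adults, and -0.88, -1.08, -1.05 and -1.36 in old rats. The 3 ages did not overlap, and the changes were 1.37 ± 0.21, 3.73 ± 0.21 and 2.36 ± 0.27. Its second probe went the other way between adult and old rats. That probe was 0.22 to 1.79 in the pups (median 0.90), -0.52, -0.67, -0.70 and -1.01 in adults, and 1.31, 1.20, 0.81 and 0.45 in old rats. Old rats lay among the pups there and adults below both, so that adult over old was -1.66 ± 0.24 (adjusted p = 6.02e-06) against 2.36 at probe 1. Probe 2 lies 40956 bases before probe 1 on the genome. Chains Col9a2 and Col9a3 gave little change between adult and old rats (-0.59 ± 0.22 and -0.31 ± 0.21, neither called), at levels of 6.85, 5.56 and 6.15 for Col9a2 and 3.15, 1.15 and 1.46 for Col9a3 in newborn, adult and old rats. The second Col9a3 probe gave 0.53 from old to adult, of the other sign and not called.

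The helix can be read in some of these probes, which is why they are shown. Capitals mark codons for glycine, GGN, at the first place of each triplet of codons.
Col9a1 probe 1, chr9:22978230-22984184, plus strand: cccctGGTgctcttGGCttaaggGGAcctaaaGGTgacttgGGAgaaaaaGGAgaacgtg
Col9a3 probe 1, chr3:169613584-169613964, plus strand: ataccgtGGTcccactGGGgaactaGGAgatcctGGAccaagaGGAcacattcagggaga
Col4a5 probe 2, chrX:37012452-37012511, minus strand: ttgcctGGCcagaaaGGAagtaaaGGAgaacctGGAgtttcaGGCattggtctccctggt
Col9a1 probe 1 has 6 of 6 such codons, and the other 2 have 5 of 6. Probes with at least 5 were 3 of the 51 collagen probes and 9 of all 41012 (0.0219%). The first 2 span more of the genome than their 60 bases and so cross an intron. Col4a5 probe 2 was dim, above background on 4 of 19, 1 of 8 and 2 of 8 arrays of newborn, adult and old rats.

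Col10a1, made by hypertrophic chondrocytes where cartilage turns to bone, was 1.65 to 3.19 in the pups (median 2.40), 0.55, 1.25, 0.87 and 0.94 in adults, and 0.59, 1.25, 0.38 and 1.91 in old rats. Old rat 20 reached the range of the pups, and adults and old rats overlapped. The change was 1.49 ± 0.25 from adult to newborn and 1.36 ± 0.25 from old to newborn (adjusted p = 7.41e-05). Within the shared scan day, L1 over old was 1.01 (adjusted p = 0.069), which was not called.

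Of 8 chondrocyte markers, 5 were higher in newborns than in adults and 5 higher in newborn than in old rats, with 0 lower in either, and 1 was higher and 1 lower in adult than in old rats. The shares of all probes higher in these comparisons were 26.5%, 19.6% and 10.8%, and those lower 18.6%, 21.7% and 19.8%. The log2 of the summed intensities of the chondrocyte markers was 5.45 to 7.12 in newborns, 4.48 to 4.74 in adults and 4.62 to 4.76 in old rats. Hapln1, which links aggrecan to hyaluronan, and Matn3 were not above background in any old rat. Matn3 was dim at every age, above background on only 1 newborn and 1 adult array. Cnmd, chondromodulin, changed by 3.95 from adult to newborn. The part of these cells in the cartilage values was not tested.

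Among the basement membrane collagens 4 of 7 genes were higher in newborns than in adults, 5 in newborn than in old rats, and 4 in adult than in old rats, where Col7a1 was lower. Type IV collagen chains Col4a1 and Col4a2 form the common network of all basement membranes. Col4a1 was 5.63 to 6.67 in the pups (median 5.91), 3.20, 3.47, 3.25 and 3.50 in adults, and 2.80, 2.38, 2.59 and 2.59 in old rats. The 3 ages did not overlap, and most of the fall lay between newborn and adult. The change was 2.63 ± 0.13 from adult to newborn (6.20-fold, adjusted p = 5.13e-14), 3.40 ± 0.13 from old to newborn and 0.76 ± 0.16 from old to adult. Col4a2 was 2.82 to 3.97 in the pups (median 3.22), 1.38, 1.46, 1.34 and 1.53 in adults, and 0.93, 0.48, 0.44 and 0.67 in old rats. It had the same order with no overlap and changes of 1.82 ± 0.14, 2.62 ± 0.14 and 0.80 ± 0.18. A second Col4a1 probe, 112077 bases before the first on the genome, gave 0.65 from adult to newborn (called) and 0.39 and -0.25 in the other comparisons (neither called).

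These 2 genes are transcribed away from each other. Their probes lie on opposite strands of chromosome 16 in the files, and the RefSeq starts in build GRCr8 are 76 bases apart. The stretch between them is shown, since Col4a2 and the first Col4a1 probe were called higher in the younger group in every comparison, with the 1 match of GGGCGG on either strand (here CCGCCC) in capitals.
Between the starts of Col4a2 and Col4a1, chr16:84885521-84885596, plus strand: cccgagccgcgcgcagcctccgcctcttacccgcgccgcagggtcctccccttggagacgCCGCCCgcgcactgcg
Promoters of 23 collagen genes were matched by symbol, as 250 bases before to 50 after the start. GGGCGG on either strand was in 13 of these 23 (56.5%) and in 34.9% of all 27457 promoters. CCAAT on either strand, which does not overlap it and is not in the stretch shown, was in 7 of 23 (30.4%) and in 37.7% of all.

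The other chains of the class moved apart from each other. Col18a1, the source of endostatin, was 4.52 to 5.60 in the pups (median 4.79), 2.64, 2.44, 2.45 and 2.37 in adults, and 3.04, 2.92, 2.91 and 2.90 in old rats. Adults were the lowest group here, with no overlap between ages. The change was 2.41 ± 0.14 from adult to newborn (5.32-fold) and 1.94 ± 0.14 from old to newborn. Adult under old was -0.47 ± 0.17 at this probe (adjusted p = 0.0342), not called, and -0.67 ± 0.18 at its second probe (adjusted p = 0.00389), called. The first of these was called too without pup 11 of L1 (adjusted p = 0.00774), with rat as a random block (adjusted p = 0.00775), with litter means as replicates, with only the groups compared and by the methods' t-test.

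Col15a1, a close relative of Col18a1 in the zone under the basement membrane, was 1.83 to 2.82 in the pups (median 2.40), 1.66, 2.19, 1.92 and 2.54 in adults, and 1.30, 0.62, 0.79 and 0.54 in old rats. Adults overlapped the pups, and old rats lay below both. Newborn and adult differed by 0.30 ± 0.15 (adjusted p = 0.101), and adult over old was 1.26 ± 0.20 (adjusted p = 1.59e-05), the largest change of the class there. Col4a5, a chain of special basement membranes, stood at 1.37, 0.73 and -0.45 in the 3 ages and was called in each comparison at this probe. Its dim second probe was called in none. It gave 0.61 for newborn over adult, -0.22 for newborn over old and -0.82 for adult over old.

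Col7a1, which makes the anchoring fibrils under squamous epithelium, was the exception of the class. It was 2.99 to 5.15 in the pups (median 3.50), 3.23, 3.15, 3.31 and 3.79 in adults, and 4.02, 4.40, 4.33 and 4.16 in old rats. Old rats lay above every adult and within the range of the pups. Adult over old was -0.86 ± 0.26 (adjusted p = 0.00964). The call was lost in 19 of 27 fits that left out 1 rat each (adjusted p from 0.0102 to 0.0316) and under scaling by the 75th percentile (-0.76) or quantile normalization (-0.68). Col4a4, a chain of the glomerular and alveolar membranes, was above background on none of the newborn, 3 of 8 adult and none of the old arrays, and no fold is given.

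Of 8 endothelial markers 7 were matched. Among these, 5 were higher in newborns than in adults (26.5% of all probes), 4 higher in newborn than in old rats (19.6%) and 2 lower in adult than in old rats (19.8%). The log2 of the summed intensities of these markers was 6.12 to 7.39 in newborns, 5.47 to 5.63 in adults and 6.35 to 6.66 in old rats. Newborns and old rats overlapped in it. Cldn5, the brightest marker, stood at 5.46, 4.25 and 5.93 in newborn, adult and old rats. Kdr (3.71 and 3.39) and Tie1 (-1.39 and -2.20) stood higher in adult than in old rats, neither called. Cdh5 and Flt1 were not above background in any adult, and Flt1 was not in any old rat. Tek was not above background in a rat of any age. Their part in the basement membrane values was not tested.

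**Figure D4:**
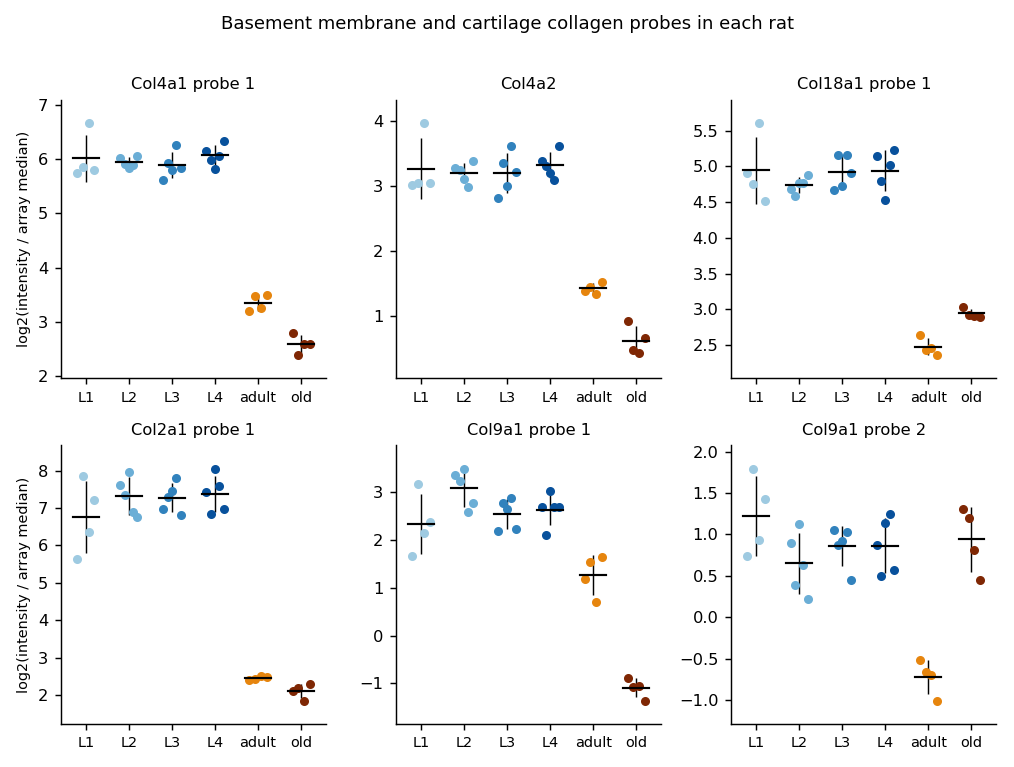
Level of 3 basement membrane and 3 cartilage collagen probes in each rat, as log2 of intensity over the array median; points are rats, black lines the group means and bars the SD over rats. Col4a1, Col4a2 and Col2a1 drop between the pups and the adults, Col18a1 is lowest in adults, and the 2 Col9a1 probes place the old rats at opposite ends.

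Associated collagens were higher in newborns than in adults for 4 of 7 genes, in newborn than in old rats for 5 and in adult than in old rats for 5. Type VI collagen forms beaded filaments around cells. Col6a1 was 4.89 to 6.32 in the pups (median 5.81), 3.64, 4.54, 4.07 and 4.83 in adults, and 2.81, 1.98, 2.51 and 2.39 in old rats. Col6a2 was 2.10 to 3.28 in the pups (median 2.87), 0.97, 1.75, 1.31 and 1.76 in adults, and 0.56, 0.18, 0.14 and -0.16 in old rats. For both genes the ages did not overlap. The changes of Col6a1 were 1.41 ± 0.17, 3.25 ± 0.17 and 1.85 ± 0.22, and those of Col6a2 were 1.36 ± 0.16, 2.63 ± 0.16 and 1.27 ± 0.20, in the order newborn over adult, newborn over old and adult over old. Col6a3 was dim, above background on 6 of 19, 2 of 8 and 2 of 8 arrays, and was not called in any comparison.

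Collagens XII, XIV, XVI and XXII bind to the surface of fibrils. Col12a1 was 1.09 to 2.40 in the pups (median 1.87), 0.42, 1.40, 0.79 and 1.48 in adults, and -1.42, -1.67, -1.46 and -1.50 in old rats. Adults lay at the lower end of the pups or under it, and old rats far below. The change was 3.35 ± 0.19 from old to newborn (10.2-fold) and 2.54 ± 0.24 from old to adult, the largest of the class in both. From adult to newborn it was 0.82 ± 0.19 (adjusted p = 0.000769), and it was not called without adult rat 13 (0.62, adjusted p = 0.0123) or by the methods' t-test. Its second probe gave 0.61 there (adjusted p = 0.0244).

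Col16a1 was 7.59 to 8.83 in the pups (median 8.48), 6.14, 6.57, 6.37 and 6.90 in adults, and 5.41, 5.15, 5.54 and 5.48 in old rats. It fell at each step with no overlap, by 1.83 ± 0.13 from newborn to adult and 1.10 ± 0.17 from adult to old. Its second probe gave 1.23 and 2.0, so that the larger step depended on the probe. Col22a1, a collagen of tissue junctions, stood at 4.89 in newborn and 4.88 in adult rats (0.01 ± 0.23, adjusted p = 0.977) and at 3.46 in old rats, 1.43 ± 0.30 below the adults. Col14a1 was above background on 2 of 19 newborn arrays, on none of the adult and on none of the old arrays. Its values were -4.29 to -1.97 in the pups, -4.89, -4.94, -5.36 and -6.30 in adults, and -3.79, -4.21, -3.46 and -6.23 in old rats, and no fold is given.

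Of the transmembrane and other collagens, Col8a1, a short chain of vessels and cornea, was the 1 gene called between newborn and adult. It was 3.38 to 4.69 in the pups (median 3.86), 2.28, 3.27, 2.49 and 2.73 in adults, and 2.51, 1.36, 1.99 and 2.02 in old rats. Pups lay above all older rats, and adults and old rats overlapped. The changes were 1.16 ± 0.20, 1.88 ± 0.20 and 0.72 ± 0.25, the last not called (adjusted p = 0.0243). Without old rat 17 it was called, at 0.90 (adjusted p = 0.00812). Its partner Col8a2 was -0.51 to 0.54 in the pups (median 0.18), -0.67, 0.12, -0.42 and 0.14 in adults, and -0.61, -1.46, -1.02 and -1.01 in old rats. The ranges of adults and old rats overlapped, and adult over old was 0.82 ± 0.22 (adjusted p = 0.00439). That call was lost when adult rat 14 or 16 or old rat 18 or 19 was left out (adjusted p from 0.0103 to 0.0242). It was also lost with slide (adjusted p = 0.0176) or scan day (adjusted p = 0.0266) as a random block, with litter means, with only the groups compared, under normexp and by the methods' t-test.

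Col17a1, the transmembrane collagen of hemidesmosomes, was above background on none of the 35 arrays. Its level was at the floor of -6.64 in all 4 adults, at -6.64, -6.47, -6.64 and -6.64 in old rats, and from -6.64 to -4.10 in the pups. The brighter probe of Col23a1 stood at 0.47, 0.28 and 0.87 and was not called. Its second probe was lower than in old rats in both newborn (-0.72 ± 0.20, adjusted p = 0.00369) and adult rats (-0.92 ± 0.25, adjusted p = 0.00532).

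Several probes of 1 gene did not always give the same call. For the 14 genes with more than 1 probe measured in newborn and adult rats, all probes gave the same call for 9. That number was 10 of 15 between newborn and old and 9 of 14 between adult and old rats, with opposite calls for 1, Col9a1. Probes of a gene lay apart by over 1 on the log2 scale for 2, 5 and 5 genes in these comparisons.

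Chains of types IV, V, VI and IX rose and fell together from pup to pup. With litter means taken out, Col4a1 and Col4a2 had r = 0.94 and rho = 0.87 over the 19 pups (permutation p = 8e-05, adjusted p = 0.000213 over 8 pairs), and r = 0.86 without the 2 pups farthest from the median. Col5a1 and Col5a2 had r = 0.93, rho = 0.92 and r = 0.90 without those 2 (permutation p = 1e-05, the smallest the permutations can give, adjusted p = 8e-05). Col6a1 and Col6a2 had r = 0.91, rho = 0.85 and r = 0.87 without them (permutation p = 2e-05, adjusted p = 8e-05). Col9a1 and Col9a2 had r = 0.85, rho = 0.80 and r = 0.75 (permutation p = 0.00015, adjusted p = 0.0003). The pups of a pair of genes share their array.

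The other 4 of the 8 pairs were Col1a1 with a chain of another molecule, or with its own partner Col1a2, and the differences in r between pairs were not tested. Col1a1 with Col3a1 had r = 0.62 and rho = 0.44 (permutation p = 0.0118 and 0.0922, adjusted p = 0.0158 and 0.123), and r = 0.59 without 2 pups. Col1a1 with Col4a1 had r = 0.62 and rho = 0.57 (permutation p = 0.0118 and 0.0206, adjusted p = 0.0158 and 0.0329), and r = 0.51 without 2 pups. Col1a1 with Col2a1 had r = 0.31 and rho = 0.35 (permutation p = 0.297 and 0.201, adjusted p = 0.34 and 0.23), and r = 0.38 without 2. Col1a1 with Col1a2, at the probes that stand for them, had r = 0.20 and rho = 0.25 (permutation p = 0.413 and 0.327, adjusted p = 0.413 and 0.327), and r = 0.07 without 2. With both chains read at coding probes, Col1a2 probe 2 had r = 0.96 with Col1a1 probe 1 and 0.91 with Col1a1 probe 3. With both read at probes that reach past the stop codon, r was 0.90. Whether probe position accounts for these differences was not tested.

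**Figure D5:**
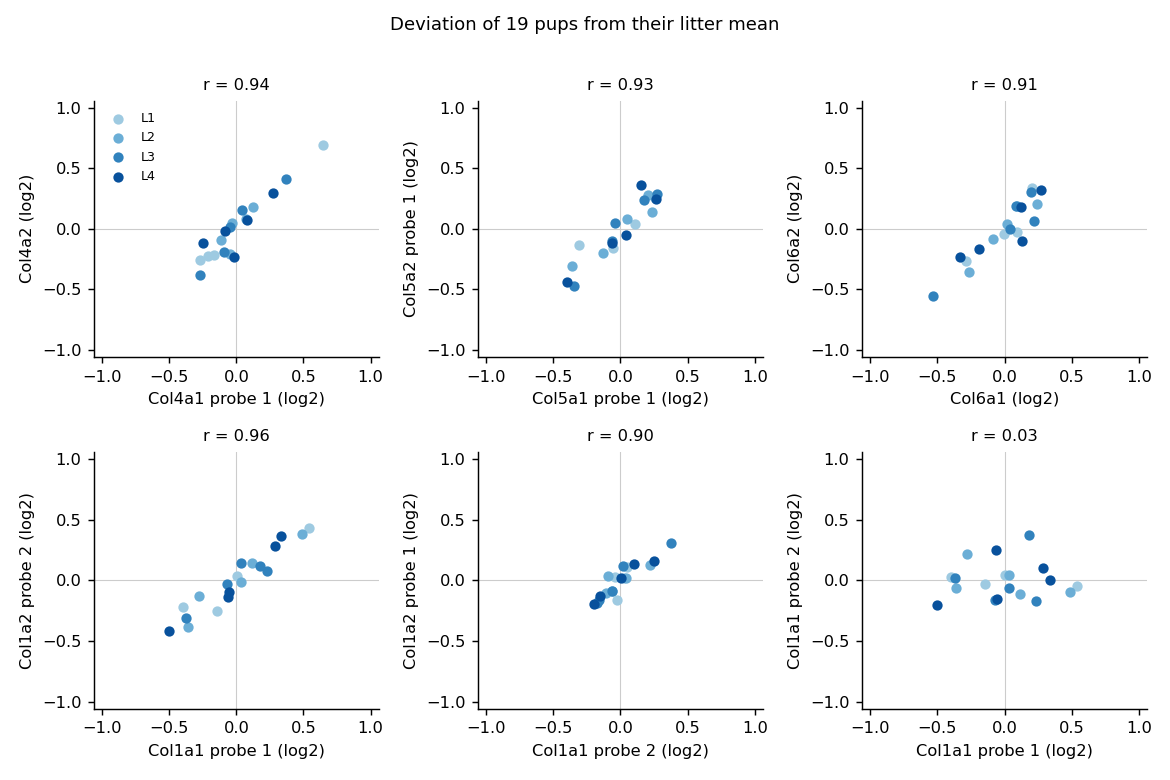
Deviation of each of 19 pups from its litter mean, in log2, for 6 pairs of probes; colours are the litters. The chains of types IV, V and VI lie along a line (r of 0.94, 0.93 and 0.91). So do a coding pair of type I (0.96) and its pair that reaches past the stop codon (0.90), while the 2 Col1a1 probes scatter (0.03).

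The 4 litters differed in 5 of the 29 collagen genes measured in pups, against 21.6% of all probes. Col1a2 (adjusted p = 0.00258, limma F test), Col5a2 and Col16a1 were highest in L2 and lowest in L1. Their litter means ran from 10.11 to 10.88, from 7.52 to 8.60 and from 7.93 to 8.65. Col27a1 (2.15 to 3.51) and Col7a1 (3.21 to 4.30) were highest in L1 and lowest in L2. The range between litter means of these 5 genes was 0.72 to 1.36. For Col27a1 it was 1.36, wider than the changes of newborn over adult (0.24) and over old rats (0.88). For Col7a1 it was 1.10, against 0.28 and -0.57. For Col5a2 it was 1.08, wider than newborn over adult (0.54) and narrower than newborn over old (4.12). For Col1a2 and Col16a1 it was narrower than both changes. The number of genes called among litters was 2 without pup 9, 12, 21, 22 or 23 and 3 without pup 11 or 25. Each litter lay mostly on slides of its own, so litter and slide cannot be told apart.

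Within 1 scan day, L1 stood against the old rats. In that comparison 21 of the 31 genes were higher in L1, 8 were not called and 2 were at background, while 11.5% of all probes were higher. Col1a1 changed by 3.39, Col3a1 by 3.78, Col2a1 by 4.66 and Col4a1 by 3.43. Col9a2 (0.35, adjusted p = 0.337), Col22a1 (1.47, adjusted p = 0.0153), Col8a2 (0.90, adjusted p = 0.0183) and Col10a1 were called over all litters and not here, and Col27a1 was 1.68 here against 0.88 over all litters.

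Enzymes and partners of collagen were read from lists of their own. Beside their counts stand the shares of all probes. Higher were 26.5% in newborn over adult, 19.6% in newborn over old and 10.8% in adult over old rats, and lower were 18.6%, 21.7% and 19.8%. Of 10 matched genes that process procollagen or crosslink fibrils, 8 were higher in newborns than in adults, 9 in newborn than in old rats and 5 in adult than in old rats, with 0 lower in any. Their median changes were 1.25, 2.02 and 1.57. Loxl2, a lysyl oxidase relative, stood at 4.72, 2.29 and 0.30 in newborn, adult and old rats, changes of 2.43, 4.42 and 1.98. Lox, the lysyl oxidase that starts crosslinks, changed by 1.68, 3.42 and 1.73. Of 9 matched fibril-binding proteoglycans and glycoproteins, 7, 7 and 3 were higher and 0 lower, with medians of 1.11, 1.40 and 0.33, and lumican (Lum) changed by 1.81, 3.45 and 1.65.

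Folding and modifying enzymes went less one way. Of 15 matched, 9 were higher and 1 lower in newborn than in adult rats, 8 and 1 in newborn than in old rats, and 3 and 4 in adult than in old rats, with medians of 0.64, 0.37 and 0.35. In that last comparison 10.8% of all probes were higher and 19.8% lower. P4ha3, a prolyl 4-hydroxylase subunit, stood at 5.15 in pups, 1.25 in adults and 0.83 in old rats, a change of 3.90 ± 0.15 and 4.31 ± 0.15. P4ha1, another subunit of that enzyme, went the other way, with a change of -0.68 ± 0.11 from adult to newborn (adjusted p = 1.91e-05). Serpinh1, the collagen chaperone, changed by 0.81, 2.40 and 1.59. The 4 genes lower in adult than in old rats were P4hb, Plod1, Plod3 and Ppib, enzymes of the endoplasmic reticulum, with changes from -0.50 to -0.41. Of 7 matched collagen receptors, 3 were higher and 2 lower, 4 and 2, and 3 and 1 in the 3 comparisons, with medians of 0.59, 0.67 and 0.08. Itga10, a collagen integrin of cartilage, changed by 2.95 from old to adult, and Itga2, the 1 receptor lower there, by -1.64. Mrc2 was lower in newborn than in adult (-1.34) and in old rats (-1.48). These lists are described by counts, and no test was made of a list.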

How the data were processed

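Total RNA of the olfactory epithelium was amplified with T7 polymerase, labelled with Cy3 and hybridised to 1-colour whole rat genome arrays. Per the labels and file headers, the authors scanned the arrays with Agilent Feature Extraction (9.5.1.1 and 9.5.3.1) and deposited a background-subtracted intensity for each spot with flags for background, saturation and outliers. A further table deposited by the authors holds ratio values, with each intensity divided by the median of its array and then by the median of its probe over the arrays, which was used only as an alternative.

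Of 45018 spots, 43379 were not controls and gave 41012 probes. Outlier spots (3294 values) and non-uniform spots (890 values) were left out and spots of a probe averaged. Each intensity was divided by the array median, floored at 0.01 and taken to log2. The number of arrays limits the precision. The arrays of a rat were averaged, and limma 3.58.1 (R 4.3.3) was fitted over 6 groups (4 litters, adult, old), with newborn as the mean of the litters and Benjamini-Hochberg adjustment over all probes. The error given beside a change is the SE of the fit. Correlations used 100000 permutations, two-sided, with scipy 1.17.1. Scripts were tested on simulated data. A gene with no well measured spot in a group has no fold.

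Values in every rat are given for the main chains of each class and for the called gene of each class with the largest change in a direction, and other collagens by their change. Of the other lists only some called genes with the largest change were named, and Fbn1, Mcam and Rgs5 were not. Kdr and Tie1 were named for a comparison in which neither was called. Ibsp, Cnmd, Lox, Lum, Serpinh1, P4hb, Plod3 and Ppib were named after their values were seen. The members, lists and classes were chosen with earlier results of these data known. Alternatives were other scalings, the matrix, filters, rat, slide or scan day as a random block, litter means, the methods' t-test and leaving out each rat.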

Additional observations from a re-analysis of the deposited data

Results flagged for a closer look

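In 120 groups of 4 or 5 rats, 7 values stood away from the rest of their group by Dixon's criterion, in 6 rats. Chance flags about 1 in 20 such groups. Each is given as the gap to the nearest rat over the range of the group. Pup 11 of L1 was high for both chains of the type IV network, Col4a1 (0.886, level 6.67 with the nearest pup at 5.86) and Col4a2 (0.964, 3.97 with the nearest at 3.05). Pup 24 of L2 was low for Col3a1 (0.711, 9.55 against 9.89), and pup 26 of L3 was low for Col6a1 (0.759, 5.19 against 5.76). Pup 29 of L3 was high for Col8a1 (0.718, 4.69 against 3.99), and pup 32 of L4 was low for Col8a2 (0.779, -0.31 against 0.26). Old rat 17 was high for Col18a1 (0.872, 3.04 against 2.92).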

How the results depend on the processing

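The numbers of collagen genes higher in newborn than in adult rats ran from 13 to 20 over the alternatives other than counting every probe, those in adult over old rats from 10 to 18, and those in newborn over old rats from 24 to 25, or 21 within 1 scan day. With every collagen probe counted, 32, 38 and 27 were higher in newborn over adult, newborn over old and adult over old, and 1 and 5 lower in the last 2 comparisons. The methods' t-test gave 10 higher and 3 lower in adult over old rats and 2 lower in newborn over old rats. In newborn over old rats 1 gene was lower with rat as a random block or with litter means as replicates, and 1 was lower in newborn than in adult rats with normexp background and quantile normalization. The single gene lower in adult than in old rats, Col7a1, was 0 under the 75th percentile, quantile normalization, normexp, the deposited matrix, the floor before scaling, and slide or scan day as a random block. That count was 3 with rat as a block, and 4 with litter means or with only the groups compared. The genes called among litters were 3 under the 75th percentile, 3 under quantile normalization and 2 under normexp. Leaving out each rat gave 0 to 2 genes lower in adult than in old rats, 0 to 1 lower in newborn than in old rats (1 without pup 11 of L1) and 2 to 6 among litters.

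Class medians moved under several settings. With normexp and quantile normalization they were 0.28 (newborn over adult) and 2.93 (adult over old) for fibrillar genes, 0.21, 0.93 and 0.45 for basement membrane genes in the 3 comparisons, 1.09 and 1.64 for cartilage genes over adult and over old, 0.61, 1.52 and 0.90 for associated genes, and 0.18 and 0.11 for the transmembrane and other genes over old rats. Quantile normalization alone gave 0.18 and 2.97 for fibrillar genes. The 75th percentile gave 0.68 for associated genes. With the floor before scaling the transmembrane and other genes had 0.73 (newborn over adult) and 0.068 (adult over old). Over transcripts expressed in common the medians were 1.23 for basement membrane genes (newborn over adult), 2.93 for associated genes, and 1.12 and 0.72 for transmembrane and other genes. Over those expressed in at least 1 group they were 1.23, 1.12 and 0.72 for the first and last of these classes. Associated genes had 2.18 within 1 scan day. Leaving out each rat moved the cartilage median from old to adult between -0.00018 and 0.29, the highest without old rat 20. The cause of these moves was not tested. Col1a1 from adult to newborn reversed to -0.72 under normexp with quantile normalization. No paired analysis was possible because the groups share no replicate numbers. Dim probes limit what can be said of Col4a4, Col6a3, Col14a1 and Col17a1.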

Other observations

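Other cell types of the dissected tissue were read from marker lists. The shares of all probes higher were 26.5% in newborn over adult, 19.6% in newborn over old and 10.8% in adult over old rats. Those lower were 18.6%, 21.7% and 19.8%. Of 6 matched markers of smooth muscle and pericytes, 1 was higher and 2 lower in newborn than in adult rats, 2 and 3 in newborn than in old rats, and 1 and 2 in adult than in old rats. Of 7 matched markers of Schwann cells and ensheathing glia, 4 were higher in newborns than in adults, 1 in newborn than in old rats, and 1 was lower in adult than in old rats. S100b, a glial marker, was not above background on any array. Of 4 matched markers of basal epithelial cells, none was called by limma in any comparison.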
